A study of Mus musculus with 36 samples.

Results

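The peaks described here are the 724 regions of the list called on PAX6 ChIP pool 3, out of 3254 regions in the 4 deposited lists. They were taken whole, with no filter on score. MACS, a program that compares read pile-ups in an immunoprecipitated sample with those in a control, had been run on 6 merged PAX6 ChIP libraries against 6 input libraries. Each peak has a position on the mouse genome build mm9 and a score, which is -10 times the base 10 logarithm of the MACS p-value, so a higher score stands for a lower p-value. The score depends on read depth, which is unknown here, and it was ranked within this list only.

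All libraries came from enteric precursor cells (EPCs) of ganglionic gut of CD1 mice at P7, cultured with growth factors as neurosphere-like bodies (NLBs). Chromatin was fixed with formaldehyde and precipitated with an anti-PAX6 antibody (Millipore), and 10% of each reaction was kept as input. The lists set beside pool 3 were those of PAX6 pool 1 (4 ChIP and 4 input libraries, 491 peaks), PAX6 pool 2 (6 and 6, 1032 peaks) and mouse IgG, the negative control antibody (4 libraries, all labelled pool 1, 1007 peaks). No genotype differed between the groups. EPC cultures are mixed, and peaks carry no expression values, so the cell type could not be checked against markers. The libraries of each group had been merged before calling, which leaves the spread between libraries unknown. Tests between lists treat each peak as 1 unit, so they account for counting error alone.

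PAX6 is a transcription factor with a paired domain and a homeodomain, and it is best known for eye, brain and pancreatic islet development. EPCs derive from the neural crest and give rise to the neurons and glia of the enteric nervous system. Their spread along the gut depends on the receptor RET with its ligand GDNF and on the receptor EDNRB with its ligand EDN3. Repeated DNA matters for a ChIP list because reads from many copies can be placed on the few copies that a genome build holds. Satellite DNA consists of long tandem blocks at centromeres and is mostly missing from mm9, and telomeres consist of tandem TTAGGG units.

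The highest scores of pool 3 belonged to satellite-like sequence. Of the 20 highest peaks, 5 shared a tandem repeat unit, and these included the 4 highest of all. The units are shown because they are what these peaks have in common. The first, of 234 bp, was read from the highest peak (chr2:98506245-98507641, score 1451.67), in a stretch that was 96.6% identical to the 234 bases that follow it. The length was taken as the period at which most bases of this whole peak recurred (45.7%, next 41.4% at 251 bp), although the best single stretch of the peak recurred slightly better at 251 bp (97.2%). The reference unit comes from chr2:98506706-98506939, and the others are the most similar 234 bases of their peaks without gaps, from chr9:35112946-35113179, chr2:98504005-98504238 (minus strand) and chr12:3109984-3110217. Capitals mark the bases that differ from the reference unit.
Chromosome 2, highest peak: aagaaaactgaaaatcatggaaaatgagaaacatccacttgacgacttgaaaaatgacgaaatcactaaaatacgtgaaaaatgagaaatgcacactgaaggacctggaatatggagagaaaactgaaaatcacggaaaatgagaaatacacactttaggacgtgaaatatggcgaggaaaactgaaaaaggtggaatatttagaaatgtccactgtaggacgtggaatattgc
Chromosome 9, peak of score 1096.32: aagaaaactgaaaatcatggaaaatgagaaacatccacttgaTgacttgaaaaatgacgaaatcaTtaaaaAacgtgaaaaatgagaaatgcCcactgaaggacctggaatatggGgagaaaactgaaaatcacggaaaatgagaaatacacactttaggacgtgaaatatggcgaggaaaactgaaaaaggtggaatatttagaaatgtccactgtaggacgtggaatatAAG
Chromosome 2, peak of score 252.30: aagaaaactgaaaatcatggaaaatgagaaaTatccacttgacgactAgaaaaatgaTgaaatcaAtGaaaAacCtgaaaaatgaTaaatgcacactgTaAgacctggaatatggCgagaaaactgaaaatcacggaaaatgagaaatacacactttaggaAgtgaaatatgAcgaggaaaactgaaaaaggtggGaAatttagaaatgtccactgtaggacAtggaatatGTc
Chromosome 12, peak of score 676.47: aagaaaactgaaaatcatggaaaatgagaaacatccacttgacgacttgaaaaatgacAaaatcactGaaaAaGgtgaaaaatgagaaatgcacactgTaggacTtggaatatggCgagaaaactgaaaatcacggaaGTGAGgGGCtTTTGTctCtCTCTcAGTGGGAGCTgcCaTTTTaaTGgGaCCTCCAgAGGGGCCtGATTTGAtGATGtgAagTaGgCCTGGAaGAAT

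The chromosome 9 copy was identical to the reference unit at 96.6% of bases and the chromosome 2 copy at 92.3%. The chromosome 12 copy followed the unit for its first part and then ran into unrelated sequence, with 65.8% of bases identical. The length of 234 bp is also that of the unit of mouse major satellite, the main pericentromeric repeat. No satellite reference was used here, so that identity was not tested. A second unit, of 120 bp, recurred in peaks of the same block and on chromosome 6. It is shown from chr2:98505140-98505259 as the reference, chr2:98502684-98502803 (minus strand) and chr6:103599132-103599251 (minus strand), again with capitals for bases that differ.
Chromosome 2, peak of score 133.59: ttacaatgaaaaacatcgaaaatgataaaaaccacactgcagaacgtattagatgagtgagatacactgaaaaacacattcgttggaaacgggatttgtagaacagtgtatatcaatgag
Chromosome 2, peak of score 877.96: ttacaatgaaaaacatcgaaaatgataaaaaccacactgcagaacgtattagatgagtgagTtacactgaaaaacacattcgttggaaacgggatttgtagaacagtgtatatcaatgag
Chromosome 6, peak of score 123.24: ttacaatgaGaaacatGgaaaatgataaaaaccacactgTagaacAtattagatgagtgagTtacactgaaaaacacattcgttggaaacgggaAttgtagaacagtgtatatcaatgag

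Copies of these units of at least 50 bp were found by blastn in 8 pool 3 peaks at 5 loci. They were found in 1 IgG peak, 75.33 in score and 0.718 kb upstream of Oasl1, and in 0 peaks of pool 1 and pool 2. The 8 peaks had scores from 123.24 to 1451.67 with a median of 464.385, against 105.615 for the whole list. Both units were read from pool 3 peaks, and 1 of these was the highest. Those peaks were bound to be counted, so this median and the contrast with the other lists follow partly from that choice. The block on chromosome 2, chr2:98502228-98507641, held 4 of them with gaps of 387 to 701 bp, over the predicted genes Gm10801 and Gm10800. Its scores in order along the chromosome were 877.96, 252.30, 133.59 and 1451.67. The 234-bp unit covered 788 bp and the 120-bp unit 288 bp of the highest peak, which together make 77.0% of its 1397 bp. The third peak of the block held only the 120-bp unit, with 343 bp. Outside this block the peaks were chr9:35112647-35113329 (1096.32, 23.6 kb upstream of Gm5614), chr12:3109720-3110265 (676.47, 27.3 kb downstream of the start of Gm9075), chr13:77578017-77578464 (166.42, in an intron of 2210408I21Rik) and chr6:103598903-103599435 (123.24, in an intron of Chl1, which encodes a neural cell adhesion protein). None of the 8 overlapped a peak of another list. Chromosomes 1 to 19 and X of mm9 held 35 loci with such copies, 82498 bp in all, so that 30 loci had no pool 3 peak. The loci with a peak held 4.46% of these bases, and the longest locus, at the start of chromosome 9, was not among them.

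**Figure D1:**
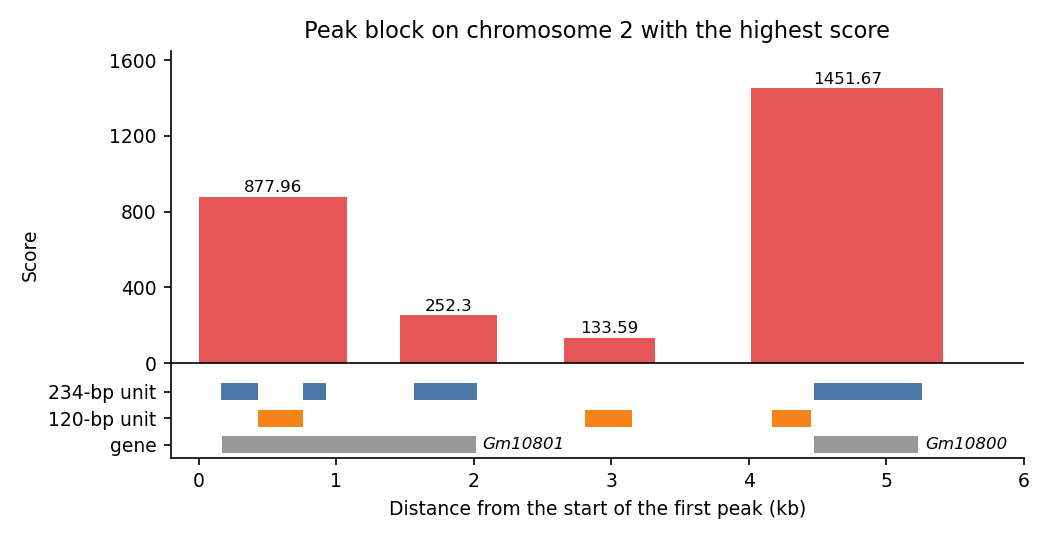
The peak block on chromosome 2, with the score of each pool 3 peak (red bars as wide as the peaks, vertical axis) by distance in kb from the start of the first peak. Rows below 0 show mm9 stretches that match the 234-bp unit (blue) and the 120-bp unit (orange) and the annotated genes (grey). Each of the 4 peaks, scoring 133.59 to 1451.67, covers at least 1 stretch of a unit.

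A second kind of repeat consisted of telomere units inside chromosomes. Uninterrupted TTAGGG or CCCTAA runs of at least 20 bp lay in 12 of 712 annotated pool 3 peaks (1.69%, Wilson 95% interval 0.967 to 2.92). The peaks were narrow, with a median width of 223.5 bp, and low in the list, with scores of 51.02 to 108.48 and a median of 61.965. IgG had 1 such peak of 1006, pool 1 had 0 of 489 (which, at 3 counts, allows a share of up to 0.613%) and pool 2 had 3 of 1018. The pool 3 share was higher by 1.59 percentage points than in IgG (adjusted p = 0.000673 by Fisher's exact test, two-sided, corrected for 24 comparisons), by 1.69 than in pool 1 (Fisher's exact adjusted p = 0.0058) and by 1.39 than in pool 2 (Fisher's exact adjusted p = 0.00677). With at least 4 copies of the unit required, the call against pool 1 was lost (1.42 points, Fisher's exact adjusted p = 0.0578). Telomere runs were chosen for testing after the data were seen, so these p-values are no independent support. None of the 12 overlapped a peak of another list. Of the 164 telomere runs of at least 50 bp on mm9, 12 lay under pool 3 peaks, 0 under IgG peaks, 0 under pool 1 peaks and 2 under pool 2 peaks. With the score limited to 100 or more in every list, 1 of the 12 peaks was left and no difference passed the test.

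Another unit, ATTCC, made up runs of 43 to 77 bp in 7 pool 3 peaks. They included the fifth and the ninth highest, and the runs of those 2 are printed on the plus strand, with the run in capitals. The fifth, chr1:45007916-45008132 (score 482.61), lay between genes 262 kb from the start of Gulp1, which encodes an engulfment adaptor, and the part shown is chr1:45008038-45008132. The ninth, chr6:10136240-10136456 (291.54), is shown from chr6:10136359-10136456 and reads the same unit on the other strand, as GGAAT.
Chromosome 1: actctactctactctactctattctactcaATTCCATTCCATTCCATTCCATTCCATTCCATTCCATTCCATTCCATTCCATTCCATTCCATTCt
Chromosome 6: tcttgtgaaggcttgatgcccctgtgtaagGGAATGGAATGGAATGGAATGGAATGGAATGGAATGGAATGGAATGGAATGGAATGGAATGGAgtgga

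IgG had 3 peaks with such a run, pool 1 had 1 and pool 2 had 0. The chromosome 1 peak was also an IgG peak (chr1:45007940-45008133, score 110.92), and it was the only one of the 20 highest that overlapped another list. On mm9 there were 17 ATTCC runs of at least 50 bp, of which 5 lay under pool 3 peaks, 2 under IgG peaks and 1 under a pool 1 peak. Of the 58 runs of at least 20 bp, 13 lay under pool 3 peaks, 9 under IgG peaks and 1 under a pool 1 peak. The other 5 pool 3 peaks with the unit scored 68.97 to 105.41.

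Across the whole list, short tandem arrays were the rule. The array measure was chosen after the data were seen, so its p-values are no independent support. An array was counted where at least 60% of the bases in the central 200 bp equalled the base 1 unit further on, for units of 2 to 6 bp. This held for 472 of 712 pool 3 peaks (66.3%, Wilson 95% interval 62.7 to 69.7), against 491 of 1006 IgG peaks (48.8%), 150 of 489 in pool 1 (30.7%), 420 of 1018 in pool 2 (41.3%) and 1.04% of 25555 windows spread over mm9. The difference was 17.5 percentage points from IgG (adjusted p = 3.16e-12 by Fisher's exact test), 35.6 from pool 1 (Fisher's exact adjusted p = 4.55e-33) and 25.03 from pool 2 (Fisher's exact adjusted p = 7.31e-24). The window was the same for every list because pool 3 peaks were narrower, with a median of 367.5 bp against 431 for IgG, 496 for pool 1 and 434.5 for pool 2. The unit of the array was 2 bp in 332 peaks, 4 bp in 65, 6 bp in 54, 3 bp in 12 and 5 bp in 9. The share of arrays went from 59.0% of 139 annotated peaks at scores of 150 or more to 75% of 216 peaks under 70. Among peaks of 100 or more in every list the pool 3 share exceeded that of IgG by only 2.80 points (Fisher's exact adjusted p = 1), with 35 IgG peaks and 8 pool 1 peaks left. It exceeded that of pool 2, where 114 peaks reach this score, by 18.4 points (Fisher's exact adjusted p = 0.00306).

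**Figure D2:**
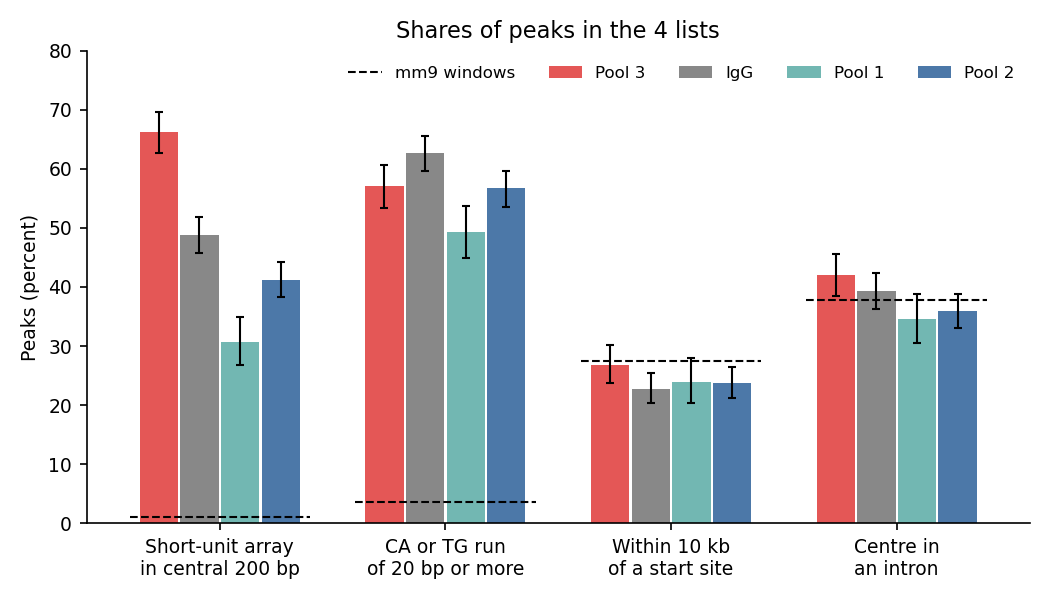
Share of peaks (percent, vertical axis) in each list that hold a short-unit array, a CA or TG run, lie within 10 kb of a start site or have their centre in an intron. Bars are colored by list, error bars are Wilson 95% intervals and dashed lines give the level in mm9 windows. Pool 3 stands highest for the arrays, at 66.3%, while all lists lie between 22.8% and 26.8% for start sites.

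CA or TG dinucleotide runs of at least 20 bp, counted over the whole peak and so not a subset of these arrays, were present in 406 of 712 pool 3 peaks (57.0%) and in 3.61% of mm9 windows of 368 bp. This share was lower than in IgG by 5.60 points (Fisher's exact adjusted p = 0.0365) and higher than in pool 1 by 7.74 points (Fisher's exact adjusted p = 0.0192), and from pool 2 it differed by 0.343 points (Fisher's exact adjusted p = 1). Within the central 200 bp the difference from IgG was -2.54 points (Fisher's exact adjusted p = 0.36), and without IgG-overlapping peaks it was -5.40 (Fisher's exact adjusted p = 0.0503). The call against pool 1 was lost for runs of at least 30 bp (0.841 points, Fisher's exact adjusted p = 0.884) and on chromosomes 1 to 19 (6.34 points, Fisher's exact adjusted p = 0.0615). Against pool 2 the difference turned to -5.07 points for runs of at least 30 bp (Fisher's exact adjusted p = 0.0658). At scores of 100 or more it was -6.67 points against IgG (Fisher's exact adjusted p = 0.549), -0.960 against pool 1 (Fisher's exact adjusted p = 1) and 25.2 against pool 2 (Fisher's exact adjusted p = 1.26e-05). Runs near Ednrb of the endothelin list, Slit2 and Plxna1 of the guidance lists and the study target Arl15 follow, with the uninterrupted run in capitals and up to 60 bases on each side. They come from the plus strand at chr14:104313663-104313817 (70.2 kb upstream of Ednrb), chr5:48372363-48372507 (1.93 kb upstream of Slit2), chr6:89330361-89330474 (18.01 kb upstream of Plxna1) and chr13:114648609-114648767 (in an intron of Arl15).
Ednrb: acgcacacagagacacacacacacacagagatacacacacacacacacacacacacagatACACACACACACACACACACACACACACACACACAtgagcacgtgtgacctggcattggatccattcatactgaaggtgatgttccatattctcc
Slit2: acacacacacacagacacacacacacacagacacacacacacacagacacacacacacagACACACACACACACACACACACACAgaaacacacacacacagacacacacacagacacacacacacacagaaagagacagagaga
Plxna1: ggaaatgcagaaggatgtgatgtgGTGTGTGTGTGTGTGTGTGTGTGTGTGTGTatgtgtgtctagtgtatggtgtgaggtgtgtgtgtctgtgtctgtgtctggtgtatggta
Arl15: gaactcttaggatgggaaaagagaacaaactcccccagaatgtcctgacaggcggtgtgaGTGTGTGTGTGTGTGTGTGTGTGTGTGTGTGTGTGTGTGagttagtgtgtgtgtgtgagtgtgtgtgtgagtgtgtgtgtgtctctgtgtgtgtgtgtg

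Runs of the triplet AAC, also chosen after the data were seen, went the other way. They lay in 3 of 712 pool 3 peaks (0.421%) and in 119 of 1018 pool 2 peaks (11.7%), a difference of -11.3 points (Fisher's exact adjusted p = 7.31e-24), while IgG had 4 peaks of 1006 and pool 1 had 7 of 489. At scores of 100 or more the difference from pool 2 was -53.2 points (Fisher's exact adjusted p = 1.43e-40). Longer units of 7 to 100 bp, with at least 70% of bases repeated and no short array, formed 26 pool 3 peaks (3.65%), 29 of IgG (2.88%), 10 of pool 1 (2.04%) and 12 of pool 2 (1.18%). The highest of them, the seventh peak of the list (chr8:13960061-13960852, score 311.74), lay in an intron of 2610019F03Rik with a unit of 72 bp. In an intron of Abcg2, which encodes a drug efflux transporter, the peak chr6:58616500-58616765 (score 180.60) had a unit of 22 bp. In an intron of Fhit, a gene in a fragile site, the peak chr14:11880854-11881266 (100.98) had a unit of 36 bp. These 2 units are shown as read from chr6:58616617-58616638 and chr14:11880854-11880889, and the 2 units that follow each of them were identical to it.
Abcg2: gaggcaggtggtggggtgacag
Fhit: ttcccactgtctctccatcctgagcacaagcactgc

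Repeated sequence was also measured without naming a unit, as the share of 32-base words of the central 200 bp that occur at least 2 times on mm9. The median over peaks was 40.2% in pool 3, 22.5% in IgG, 20.1% in pool 1, 23.96% in pool 2 and 0 in 2554 windows spread over mm9. Peaks in which at least 50% of the words were repeated made up 42.4% of pool 3 (302 of 712), 27.9% of IgG, 27.4% of pool 1, 25.05% of pool 2 and 14.9% of the windows. These values were not tested. How reads with several placements had been treated is not given in the sources used here, and its part in the scores was not tested.

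The scores themselves fell into steps. The 724 peaks had 360 distinct scores, and 439 peaks shared theirs with another peak of the list. The commonest score, 159.13, belonged to 32 peaks on 15 chromosomes, all between 295 and 329 bp wide. The next, 138.11, belonged to 29 peaks on 14 chromosomes of 332 to 377 bp. Of the 32 peaks at 159.13, 16 had a short array and 15 had none of the array kinds. The middle 50% of the list lay between 65.1425 and 138.11, and 380 peaks (52.5%) reached 100, against 35 for IgG, 8 for pool 1 and 114 for pool 2. Read depth is unknown, so a score of 100 need not mean the same in each list. These counts do not rank the lists by enrichment. By kind of sequence the median score was 92.97 for the 472 short-unit arrays, 108.095 for the 26 long-unit arrays, 109.695 for the 206 peaks with no array and 464.385 for the 8 satellite peaks. The satellite kind was defined by sequence shared with the highest peak, so its median follows partly from that choice. The 12 peaks on unplaced, X_random or Y_random contigs had a median of 110.39. They could not be annotated, and the highest of them, on an unplaced contig, was the sixth of the list with 466.46.

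**Figure D3:**
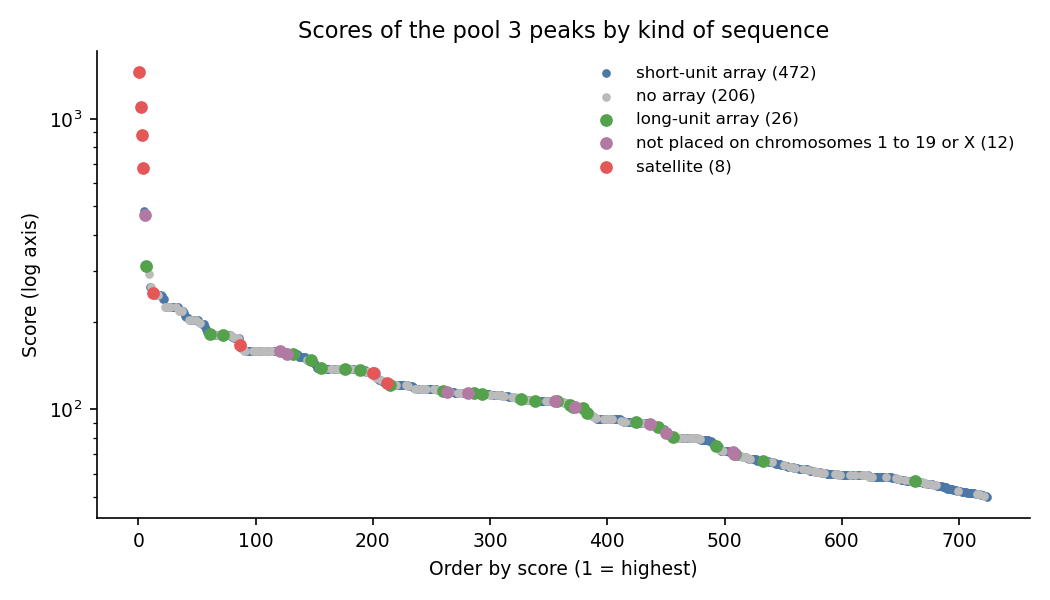
Score of each of the 724 pool 3 peaks (vertical axis, logarithmic) in order from the highest, colored by kind of sequence with the number of peaks in the key. Satellite peaks (red) hold the first 4 places, at 676.47 to 1451.67. The short-unit arrays (blue) run from 50.09 to 482.61 and the peaks with no array (grey) from 50.35 to 309.04.

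On the chromosomes, pool 3 was sparse on X. It had 3 peaks there of 724 (0.414%, Wilson 95% interval 0.141 to 1.21), while X holds 6.34% of the bases of chromosomes 1 to 19 and X. IgG had 24 of 1007 (2.38%), pool 1 had 25 of 491 (5.09%) and pool 2 had 28 of 1032 (2.71%). The pool 3 share was lower by 1.97 points than in IgG (Fisher's exact adjusted p = 0.00201), by 4.68 than in pool 1 (Fisher's exact adjusted p = 3.82e-07) and by 2.30 than in pool 2 (Fisher's exact adjusted p = 0.000609). The 3 peaks were chrX:47014680-47014881 (score 263.30, 0.643 kb from the start of the pseudogene Gm14719), chrX:164381018-164381325 (92.97, in an intron of Frmpd4, which encodes a postsynaptic scaffold protein) and chrX:53588809-53589376 (56.37, 10.5 kb upstream of Zfp449). Among the autosomes the density ran from 1.62 peaks per 10 Mb on chromosome 7 (23 peaks) to 4.26 on chromosome 10 (54 peaks), with 2.96 for the autosomes together and 0.185 for X. Chromosomes 8 (52 peaks) and 13 (48 peaks) came next to chromosome 10, with 4.17 and 4.12. At scores of 100 or more the difference turned over against IgG and pool 1, which then had 35 and 8 peaks, to 0.263 points for each, without passing the test (adjusted p = 1 by Fisher's exact test in each case).

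**Figure D4:**
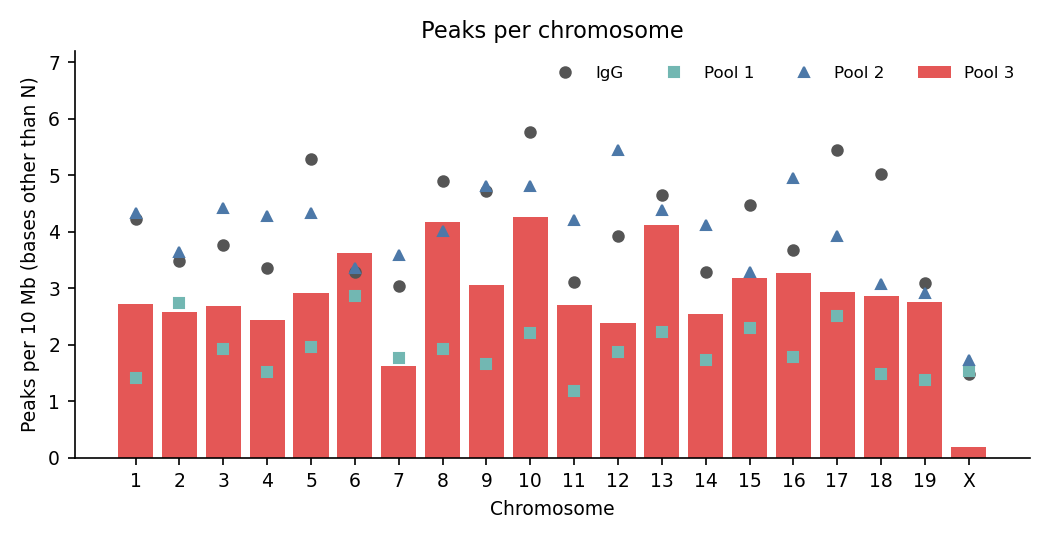
Peaks per 10 Mb of bases other than N on each chromosome of mm9 for pool 3 (bars), IgG (circles), pool 1 (squares) and pool 2 (triangles). The pool 3 bar of X, at 0.185, lies under those of all autosomes, which run from 1.62 to 4.26.

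Clusters of peaks were few. Of the 724 peaks, 14 (1.93%) had another pool 3 peak within 10 kb, against 1.99% in IgG, 1.22% in pool 1 and 1.16% in pool 2, with no difference past the test (Fisher's exact test, adjusted p from 0.305 to 1). They formed 6 groups, of which the block on chromosome 2 was the largest and the other 5 were pairs. The pairs lay in introns of Chst11, a chondroitin sulfotransferase gene (chr10:82549658-82552221, scores 196.99 and 136.16), Gas7 (chr11:67455414-67460441, 79.43 and 52.05), 1700001L19Rik (chr13:68738894-68739765, 113.76 and 96.49) and Abcg5, a sterol transporter gene (chr17:85065772-85067035, 53.95 and 53.10), and between genes near Gm13788 (chr2:94396723-94397920, 79.43 and 51.92). Both peaks of the last pair overlapped pool 1 peaks. With gaps up to 1 kb, 10 pool 3 peaks (1.38%) remained in 4 groups, against 2 IgG peaks in 1 group. The difference was 1.18 points (Fisher's exact adjusted p = 0.012). Peaks of 1 group are not independent, and the block on chromosome 2 alone gave 4 of the 10. The test counts each as a separate unit, so its p-value is too low for a comparison of groups.

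Relative to genes, pool 3 peaks lay mostly between genes (402 peaks, 55.5%) or in introns (299, 41.3%), with 5 centres in coding exons and 6 in other exons. Within 10 kb of a start site lay 191 of 712 peaks (26.8%), against 27.5% of mm9 windows, and the differences from the other lists did not pass the test (Fisher's exact test, adjusted p from 0.096 to 0.338). Centres in introns were more frequent than in pool 1 by 7.43 points (Fisher's exact adjusted p = 0.0192) and in pool 2 by 6.14 points (Fisher's exact adjusted p = 0.0192), but not past the test against IgG, by 2.73 points (Fisher's exact adjusted p = 0.338). At scores of 100 or more the difference from pool 1 turned to -1.19 points (Fisher's exact adjusted p = 1) and the call against pool 2 was lost (6.27 points, Fisher's exact adjusted p = 0.376), as it was with introns of protein-coding genes only (4.93 points, Fisher's exact adjusted p = 0.0629). The mm9 level was 37.8%. A start site within 1 kb was found for 20 of 1006 IgG peaks, 7 of 489 in pool 1 and 44 of 1018 in pool 2. In pool 3 such start sites were found for 24 of 712 peaks, and these counts were not tested. Genes with such a pool 3 peak included Foxo3, which encodes a forkhead transcription factor (chr10:41997349-41997635, score 180.60, 0.931 kb upstream), Nfrkb, a chromatin remodelling subunit gene (chr9:31207087-31207474, 180.60, 0.476 kb inside), Mrm1 (chr11:84632368-84632703, 138.11, over a coding exon and 0.299 kb upstream of an annotated start), Pard3, a cell polarity gene (chr8:129972387-129972800, 116.56, 0.947 kb inside) and Gcm2, a parathyroid transcription factor gene (chr13:41205322-41205678, 79.43, 0.143 kb upstream). Besides Gm10800, Gm10801 and Mrm1, the coding exon centres lay in AW146020 (chr6:81873561-81873887, 159.13) and Trim35 (chr14:66915992-66916443, 62.88).

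Protein-coding genes that held a peak numbered 262, and 19 of them held 2 or more. Fgfr2 held 4 and Gm20388 held 3, but their annotated bodies run over 3009 and 4435 kb and take in other genes. Chst11 held 3 peaks in 210 kb. Epha3, an ephrin receptor gene of axon guidance, held 2 with scores of 247.37 and 153.69. Cdh4, the gene of retinal cadherin, held 2 with 117.60 and 106.97, and Dgki, a diacylglycerol kinase gene, held 2 with 159.13 and 106.97. Counting every peak within 100 kb of a start site, 53 protein-coding genes had 2 or more peaks that were not in 1 group. They included the transcription factor gene Ets2 (224.76 and 80.77) and the neighbours Dmrt2 and Dmrt3 (158.55 and 137.29), which share both peaks. Other neighbours also share a pair, such as Agfg2, Mepce and Tsc22d4 (224.76 and 158.55), so the 53 genes stand for fewer pairs of peaks. By symbol, the nearest gene was a predicted gene (Gm and a number) for 127 of 712 peaks (17.8%, against 24.7% of annotated genes), an olfactory receptor (Olfr) for 5 (0.702% against 3.36%), a microRNA (Mir) for 4, and a vomeronasal receptor (Vmn1r or Vmn2r) for 0. Predicted genes made up 19.6% in IgG, 22.5% in pool 1 and 19.2% in pool 2, and olfactory receptors 0.795%, 0.818% and 0.393%. Low shares are thus not particular to pool 3. A share of annotated genes is not the level for random placement.

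For pathways, 240 annotated genes of 15 lists were looked up, of which 27 (11.3%) had a pool 3 peak within 100 kb of a start site. The level for all protein-coding genes was 5.98% (1327 of 22208), against 7.7% with an IgG peak, 3.75% with a pool 1 peak and 7.13% with a pool 2 peak. Within 10 kb the listed genes with a pool 3 peak numbered 9 (all protein-coding genes, 0.729%), at scores of 100 or more 12 (all, 3.05%), and as the gene nearest to a peak 23 (all, 1.94%). The 27 include 13 of 19 genes that the study named from these same peak lists, so that group is no independent evidence. Atxn1 of the study's genes is not counted, because its 2 peaks lay 123.5 and 174.8 kb from its start site. Without the study's genes 14 of 221 remained (6.33%), near the level of all protein-coding genes. The other 3 counts also include the study's genes. Without them, 4 of the 221 genes had a peak within 10 kb, 8 had one of score 100 or more, and 12 were nearest to a peak. None of the peaks counted for these 14 genes overlapped a peak of pool 1, pool 2 or IgG. In the endothelin pathway, which guides enteric neural crest cells, 3 of 7 genes had a peak. This count includes Edn3, a gene that the study named from these lists. The receptor gene Ednrb had the twelfth highest peak of the list 70.2 kb upstream (chr14:104313346-104313853, score 255.85). The ligand gene Edn3 had a peak 44.4 kb upstream (chr2:174541619-174541903, 78.44) and the receptor gene Ednra one 95.2 kb downstream of its start, in an intron of 4933431K23Rik (98.33). Among RET and GDNF signalling genes 0 of 18 had one, and among neuregulin and ERBB genes 0 of 14.

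Of 14 genes of class 3 semaphorins, guidance cues for migrating crest cells and axons, and their receptors, 2 had a peak. These were the ligand gene Sema3d (87.2 kb upstream, 138.11) and the receptor gene Plxna1 (18.01 kb upstream, 148.88). The axon guidance list had 2 of 22, namely Slit2, which encodes a repulsive ligand of ROBO receptors, with peaks 1.93 kb upstream of its start (126.21) and in its own intron 21.96 kb upstream of a later start site (110.23), and the ephrin receptor gene Epha4 (21.9 kb upstream, 52.37). Unc5d (159.13) and Nlgn1 (189.62) of this list had a peak in their own introns, but more than 100 kb from a start site. In the TGF-beta and BMP list 3 of 27 had a peak, which were the ligand gene Bmp6 (6.66 kb upstream, 101.43), the receptor gene Acvr1 (4.49 kb upstream, 58.65) and the receptor gene Tgfbr1 (47.0 kb upstream, in an intron of Col15a1, 117.60). Notch2, a Notch receptor gene, was the only one of 18 Notch genes, with a peak of 247.37 that lay 57.4 kb upstream in an intron of Gm5544. Tbx3 was the only one of 17 neural crest transcription factor genes (59.49, 47.9 kb downstream), and Pdgfrb the only one of 11 gut muscle and mesenchyme markers (59.49, 11.04 kb upstream). Mcc was the only one of 16 WNT genes (120.18, 31.6 kb downstream of a start site, in an intron). It is also a gene that the study named from these lists.

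Markers of enteric neurons (0 of 18), markers of enteric glia and precursors (0 of 11) and hedgehog genes (0 of 14) had no peak within 100 kb. Of 18 known PAX6 targets of eye and brain, 2 had one. Cryaa, the alpha A crystallin gene of the lens, had peaks 64.9 kb (202.49) and 90.8 kb (108.35) downstream of its start, and Optc, the opticin gene of the eye, had one 7.16 kb downstream (58.65). These counts are a description, and no count was tested against the level of all genes.

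**Figure D5:**
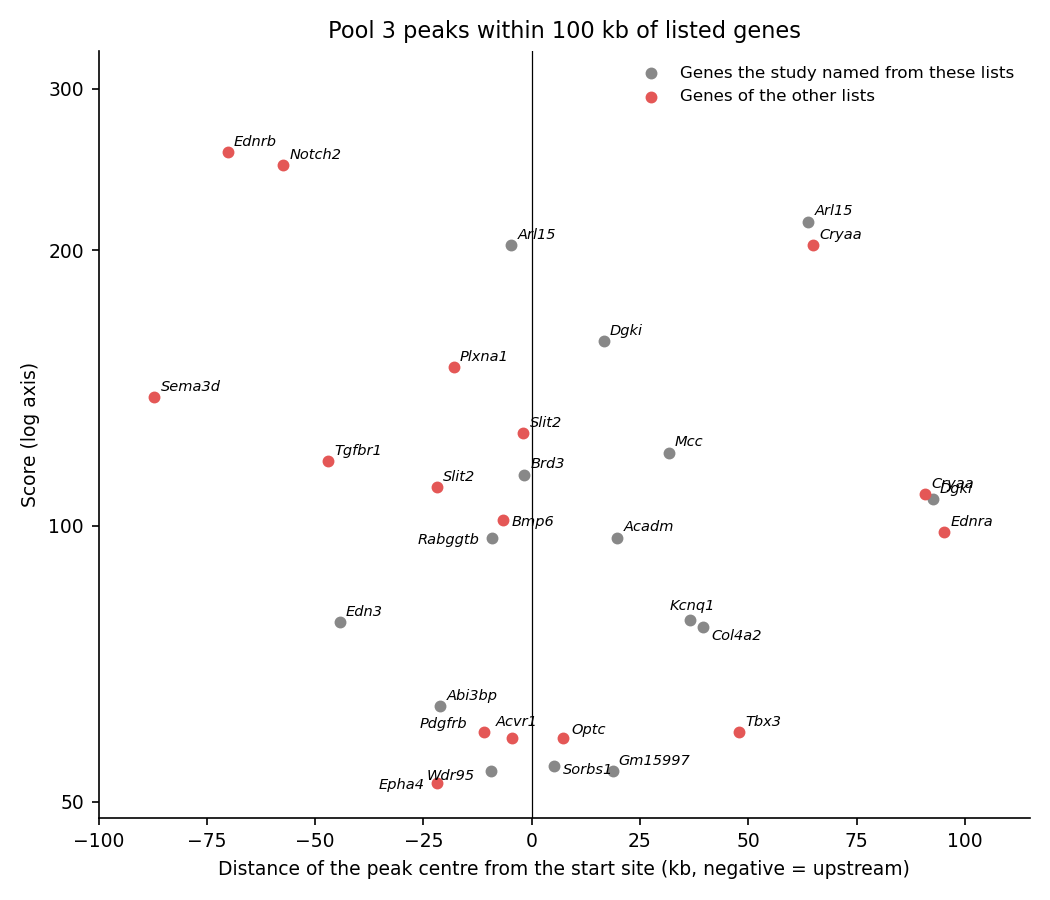
Pool 3 peaks within 100 kb of a start site of listed genes, by distance from the start site (kb, negative upstream) and score (logarithmic axis). Grey points are genes the study named from these lists and red points are the others, with Ednrb (255.85) and Notch2 (247.37) highest.

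Few pool 3 peaks were shared. By at least 1 bp, 27 of 724 overlapped an IgG peak (3.73%, Wilson 95% interval 2.58 to 5.37, and 2.68% of the IgG peaks), 7 a pool 1 peak (0.967%, and 1.22% of pool 1) and 17 a pool 2 peak (2.35%, and 1.65% of pool 2). That left 677 in no other list, and 0 in both other pools. The IgG peaks covered 452411 bp in all, those of pool 1 247708 bp and those of pool 2 470834 bp. Chromosome 1 alone has 191 Mb of bases other than N. No level for random placement was worked out for these overlaps, so whether the lists share more than chance was not tested. Of the 27 IgG-overlapping peaks 22 had a short array, of the 24 that overlapped pool 1 or pool 2 the number was 19, and of the 665 annotated peaks in no other list it was 434 (65.3%). The median score was 107.91 in the IgG-overlapping peaks and 105.43 in the rest. Among the 100 highest peaks, 4 overlapped IgG and 2 overlapped pool 2. The 4 were those at the ATTCC run of chromosome 1, in an intron of Nlgn1, a synaptic adhesion gene (chr3:25743250-25743601, 189.62), at Nfrkb and near Gm3452 (chr12:112107271-112107570, 159.13). The pool 2 overlaps were upstream of Arl15 (chr13:114579815-114580068, 202.49) and near Mir466f-4 (chr13:71292931-71293288, 175.60).

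Known PAX6 binding letters were searched in the same peaks. The 7 bases TTCACGC, part of the paired-domain consensus of PAX proteins, were found on either strand in 0 of 712 pool 3 peaks, which allows a share of up to 0.421%. They were found in 8 IgG peaks, 6 of pool 1, 5 of pool 2 and 0.584% of mm9 windows of 368 bp. The homeodomain palindrome TAATNNNATTA was in 1 pool 3 peak, against 7 in IgG, 11 in pool 1, 10 in pool 2 and 1.28% of windows. Both are descriptions of these windows only.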

How the data were processed

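Per the study's methods, Bowtie placed the reads on mm9 and MACS then called peaks, after the libraries of a pool had been merged; no version of either program is given. The deposited value used is the score of each peak, a -10 log10 p-value given by the authors' caller. It is not a count, so the depth of each library and the precision it gives are unknown. The study's methods dropped peaks shared with IgG, but the deposited pool 3 list still held 27 of them. GENCODE M1 gave the genes on chromosomes 1 to 19 and X, on NCBIM37, the assembly that the name mm9 stands for. The centre of a peak was measured against the nearest transcription start site. Shares were compared by Fisher's exact test, two-sided, with Benjamini-Hochberg adjustment over 24 comparisons and a threshold of 0.05. Shares carry Wilson 95% intervals. The level of mm9 came from tiling it in 368 bp windows, or from 25555 windows of 200 bp, with no random draws. Satellite copies of at least 50 bp were found with blastn. The members and gene lists were chosen with earlier results of these data known. Short arrays, telomere, ATTCC and AAC runs, satellite units and word counts were chosen after the data were seen.

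Genes named were the nearest genes of the 20 highest peaks, groups of peaks, peaks in coding exons or within 1 kb of a start, genes with 2 or more peaks, overlapping peaks among the 100 highest, and listed genes. The repeat search and the share comparison were tested on simulated data. Repeat masking was not used, because the genome file does not mark repeats. Reads and the authors' other experiments were not analysed here. The repeat unit lengths were the periods of 100 to 300 bp at which most bases of a peak recurred. Software was scipy 1.17.1 under Python 3.11.15, samtools 1.23.1, pysam 0.24.0 and blastn 2.17.0. Some sequences and 1 gene are not reported here.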

Additional observations from a re-analysis of the deposited data

How the results depend on the processing

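No paired analysis was possible because peaks had been called on merged libraries, and replicates could not be left out for the same reason. Of 117 recomputed values, 88 kept their direction and their side of the threshold. Differences are pool 3 minus the other list, in percentage points. Against pool 2, CA or TG runs, short arrays and AAC runs passed the test at scores of 100 or more. The gaps of 1 and 100 kb also passed, and no other difference listed did. At scores of 100 or more, IgG and pool 1 keep 35 and 8 peaks, and centres in introns became -1.19 (pool 1) and 6.27 (pool 2), CA or TG runs -6.67 (IgG), -0.960 (pool 1) and 25.2 (pool 2), peaks within 10 kb of another 1.58 (IgG), chromosome X 0.263 (IgG), 0.263 (pool 1) and -2.37 (pool 2), short arrays 2.80 (IgG) and 2.80 (pool 1), telomere runs 0.269 (IgG), 0.269 (pool 1) and -0.616 (pool 2), AAC runs 0.806 (pool 1) and -53.2 (pool 2), IgG overlap 0.526% and listed genes 12. Short arrays kept 18.4 (pool 2) at scores of 100 or more. Without IgG-overlapping peaks, CA or TG runs came to -5.40 (IgG) and neighbours within 10 kb to 0.0225 (IgG). On chromosomes 1 to 19, CA or TG runs came to 6.34 (pool 1). Introns of protein-coding genes gave 4.93 (pool 2). Runs of at least 30 bp gave 0.841 (pool 1) and -5.07 (pool 2), and the central 200 bp -2.54 (IgG). Gaps of 1 kb gave 1.18 (IgG) and 0.994 (pool 2), and of 100 kb 5.26 (pool 1). These tests count peaks of 1 group as separate units, although they are not independent. At least 4 telomere units gave 1.42 (pool 1). Within 10 kb, 9 listed genes had a peak, or 4 without the study's genes. Beyond the smaller lists at scores of 100 or more, the cause of these changes was not tested. The share of repeat-masked peaks was not run, because the genome file does not mark repeats, and groups counted once could not be applied to the share of grouped peaks. Depth limits what a single score shows.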
